A study of Homo sapiens with 4 samples.

Results

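Small RNAs made by RNA polymerase III were followed in a TARBP2 knockdown. The 10 genes were RNU6-1, RNU6ATAC, RN7SK, RPPH1, RMRP, RNA5S9, RNY1, RNY3, RNY4 and RNY5, of 19114 gene symbols that could be given to probes of the array. They were selected on their RNA class, by name, when the knockdown and control signals of these arrays had already been seen. Through their RefSeq accessions they were found on 11 probes in all. RN7SK had 2 probes and the others 1 each. Of the 10 RNAs, 9 were detected on all 4 arrays and passed the detection filter, and RMRP was detected on none.

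The cells were MDA-LM2-shDicer. MDA-LM2 is a lung-metastatic subline of MDA-MB-231, a human breast cancer line, and the hairpin against Dicer was present in all groups, controls included. RNA was taken 48 h after Lipofectamine transfection with siTARBP2-1 or siTARBP2-2, which the design text calls independent siRNAs, or with control siRNA (siControl-1 and siControl-2), where the design text speaks of mock-transfected cells. Each of the 4 is 1 array, so the knockdown and the control group have n = 2. The labels do not say whether separate cultures were used, so the p-values reflect the spread of these 4 arrays alone, and that spread may be technical.

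RNA polymerase III makes short untranslated RNAs that are abundant in all cells. U6 and its minor counterpart U6atac form the catalytic centre of the spliceosomes, 7SK holds the elongation factor P-TEFb inactive, and RPPH1 and RMRP are the RNA subunits of RNase P, which trims transfer RNA, and RNase MRP, which cuts ribosomal RNA precursors. 5S RNA is part of the large ribosomal subunit, and Y RNAs bind the Ro60 protein. La binds the 3′ ends of the new transcripts. TARBP2 binds double-stranded RNA and partners Dicer.

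Several of these RNAs are multicopy families, and a probe may read more than its named gene. The RefSeq annotation of GRCh38.p14 lists 17 genes and 510 pseudogenes of 5S RNA, and 5 genes and 1277 pseudogenes of U6. For 7SK it lists 293 pseudogenes, for U6atac 41, for RNY4 33 and for RNY1 and RNY3 16 each, but for RNY5 10, for RPPH1 2 and for RMRP 1. The transcripts are short, from 84 bases for RNY5 to 341 for RPPH1. The 4 Y RNA genes lie together, with 1 other annotated gene among them. These RNAs are made without a poly(A) tail, and the share of each that entered the labelling was not measured.

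TARBP2, the target, gave signals of 113 and 101 with the 2 siRNAs and of 652.5 and 630 in the controls. On the normalized log2 scale it fell by 3.31 (limma adjusted p = 1.86e-10), while DICER1 gave -0.09 (adjusted p = 0.442). A second deposited table, the series matrix, carries the groups crosswise, since each of its columns correlated best across probes with the same-numbered array of the other group (Pearson r of 0.99974 to 0.99997). With its labels TARBP2 would be 2.57 higher in knockdown, so the headings of the table before normalization were followed. Between 39.1% and 40.8% of probes were detected per array. All 7 listed markers of the parental line were detected, among them VIM, CD44 and AXL, while of 5 luminal markers with a probe only GATA3 passed the filter. Of 9 markers of other cell types 3 passed it (LUM, ALB and PECAM1). Their summed normalized intensity was 198.7 to 206.6 in knockdown and 157.5 to 177.3 in control. That of the 7 line markers was also higher, at 83287 and 86453 in knockdown against 79615 and 79290 in control. LUM rose by 0.44 (limma adjusted p = 0.0270), while ALB and PECAM1 gave 0.51 and -0.08 (0.0614 and 0.694). The part of these markers in the results that follow was not tested. In bulk RNA, a change in cell make-up and a change per cell cannot be told apart.

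In knockdown 4 of the 9 measured RNAs were past the threshold of 0.05 and higher, namely U6, U6atac, 5S and Y4, and 0 were lower. Over all 11227 genes 17.1% were called higher and 17.2% lower, 34.2% together. With median scaling the higher calls were 66.1% of all calls, against 49.8% here. Knockdown and control arrays did not overlap for 6 of the 9, RN7SK and RNY3 beside the called RNAs, with 5 higher and 1 lower, where this held for 67% of all genes (32.5% higher and 34.5% lower). The median log2 difference of the 9 RNAs was 0.16, and that of all genes -0.01. These counts come from the contrast that was in view when the RNAs were listed and are no test of the group. Levels differ between the RNAs in ways that probes cannot rank, so each is compared only with itself.

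**Figure D1:**
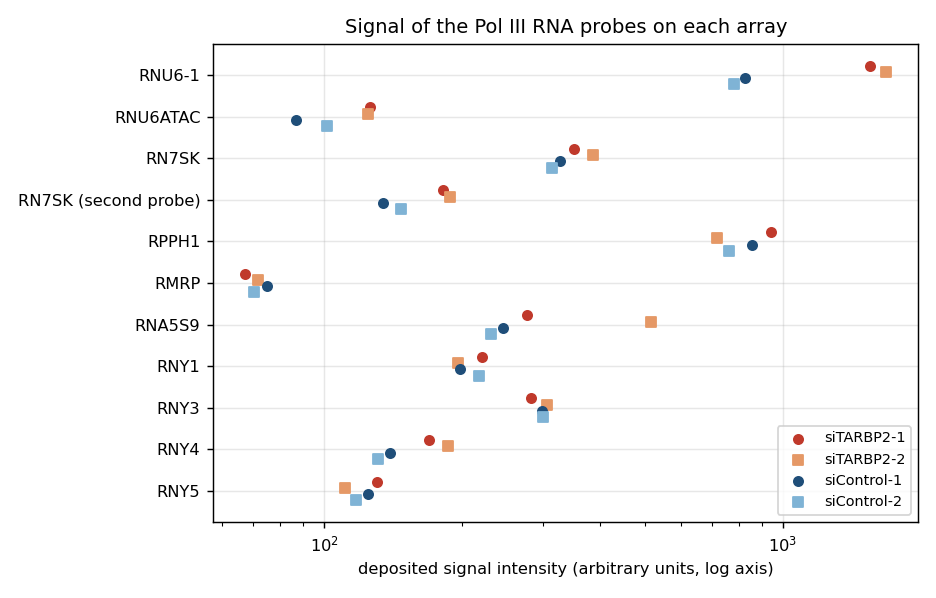
Deposited signal intensity of the 11 probes (log axis, arbitrary units) on the 2 knockdown arrays (red and orange) and the 2 control arrays (dark and light blue), 1 point per array. RNU6-1 reads 1547 and 1680 in knockdown against 827 and 782 in control, and RNA5S9 stands at 514 with siTARBP2-2 alone.

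The spliceosomal RNAs were both higher with either siRNA. RNU6-1 (NR_004394), for U6, had a deposited signal of 1547 with siTARBP2-1, 1680 with siTARBP2-2, 827 in siControl-1 and 782 in siControl-2. Both knockdown arrays thus lay far above both controls, and arrays within a group were close. Its log2 level was 10.58 ± 0.05 (SD, n = 2) in knockdown and 9.61 ± 0.04 (SD, n = 2) in control, which is 0.98 higher (standard error 0.06) or 1.97-fold. The siRNAs differed from each other by 0.07 and the controls by 0.06. Of 11227 genes 105 had a larger absolute change. RNU6-1 was past the threshold in 12 of 12 alternatives. All of these use the same arrays and the contrast already in view, so they are no separate support.

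RNU6ATAC (NR_023344), for the U6atac of the minor spliceosome, gave signals of 126 and 125 with the siRNAs and 86.9 and 101 in the controls. The groups do not overlap, although the signal is low and the controls stand further apart than the knockdown arrays. The log2 difference was 0.65 with a standard error of 0.16, while the control arrays differed by 0.37. It was 0.42 with a background offset of 50, and 0.38 without background correction. RNU6ATAC did not pass the threshold without siTARBP2-1 or without siControl-1.

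RN7SK (NR_001445), for the 7SK RNA that restrains P-TEFb, was read by 2 probes that differed in size. The brighter one gave 350.5 and 384 in knockdown and 326 and 314 in control, a log2 difference of 0.16 with a standard error of 0.08. The dimmer one gave 181 and 188 in knockdown against 134 and 147 in control, a log2 difference of 0.47 with 7.11 ± 0.01 and 6.63 ± 0.12 (SD, n = 2). Both point upward without overlap, by unequal amounts. The brighter probe, which stood for the gene, was not past the threshold, and RN7SK passed when the 2 probes were averaged.

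5S RNA was the least even of the RNAs that were higher. RNA5S9 (NR_023371) had a signal of 277 with siTARBP2-1, 514 with siTARBP2-2, 246 in siControl-1 and 231 in siControl-2. One knockdown array stood far above the rest, and the other lay near the control range, though above it. The log2 difference was 0.70 with a standard error of 0.20, made up of 0.23 with siTARBP2-1 and 1.17 with siTARBP2-2. The siRNAs differed by -0.94 (siTARBP2-1 minus siTARBP2-2), more than the change itself, whereas the controls differed by 0.10. Of all genes 3 differed more between the siRNAs, where the median absolute difference was 0.08. Without siTARBP2-2 the difference was 0.23 and RNA5S9 did not pass the threshold, nor did it pass without siControl-2 (0.65), with no detection filter, without a variance trend or with a robust variance model.

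The RNA subunits of the tRNA- and rRNA-cutting ribonucleases were not higher as a pair. RPPH1 (NR_002312), of RNase P, gave 941 with siTARBP2-1 and 719 with siTARBP2-2, on either side of the controls at 857 and 762. After normalization RPPH1 stood likewise, as did RNY5 and 7.6% of all genes. Its log2 difference was -0.03 with a standard error of 0.11, from 0.20 with one siRNA and -0.27 with the other. RMRP (NR_003051), of RNase MRP, gave 67.3, 71.7, 75.1 and 70.5 on the 4 arrays, siRNAs first, with detection p-values of 0.142, 0.05325, 0.0286 and 0.104. No array had it above background, so no fold is given.

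**Figure D2:**
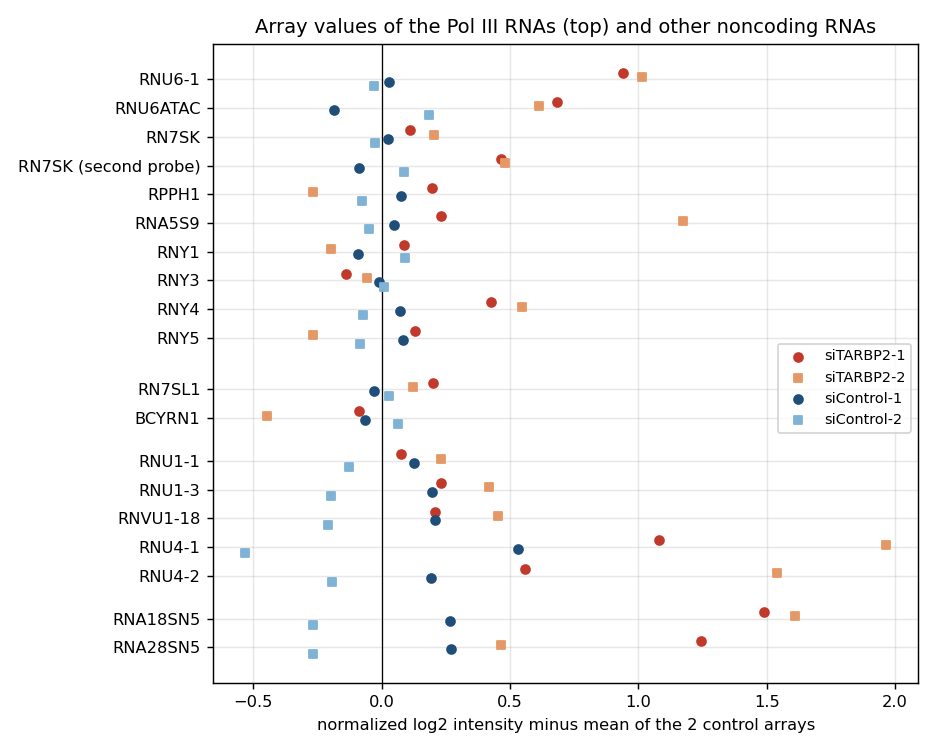
Normalized log2 intensity minus the mean of the 2 control arrays, 1 point per array, for the Pol III RNAs (top block) and, below, other Pol III RNAs, Pol II snRNAs and ribosomal RNAs. RNU6-1 lies 0.94 and 1.01 above its controls and RNA5S9 0.23 and 1.17, while RNU4-1 and RNA18SN5 reach 1.97 and 1.61.

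Among the Y RNAs, which share a locus and a partner protein, 1 of 4 was past the threshold and higher. Over all genes 17.1% were called higher and 34.2% in either direction. RNY4 (NR_004393) gave 169.6 and 186 in knockdown against 139 and 131 in control. Neither knockdown array overlapped the controls. The siRNAs differed by 0.12 and the controls by 0.15, where the median of each over all genes was 0.08. The log2 difference was 0.49 with a standard error of 0.11, and 0.37 with an offset of 50. RNY4 did not pass the threshold without siTARBP2-2.

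The other three Y RNAs were not past the threshold. RNY1 (NR_004391) gave 221 and 195.5 in knockdown and 197 and 217.5 in control, with a log2 difference of -0.05 and a standard error of 0.11. In these signals its knockdown arrays stood on either side of the controls. After normalization the groups overlap in part, with siTARBP2-1 between the controls and siTARBP2-2 below both. RNY3 (NR_004392), the steadiest of the measured RNAs, gave 282 and 306 against 299 and 299.7, a log2 difference of -0.10 with a standard error of 0.08. After normalization both its knockdown arrays lay just below the controls, within a range of 0.15 over the 4 arrays. RNY5 (NR_001571) gave 130.5 and 111 against 124.5 and 118, on either side of the controls, with a log2 difference of -0.07 and a standard error of 0.15.

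Taken singly against the same 2 controls, siTARBP2-1 brought 3 of the 9 RNAs past the threshold and siTARBP2-2 brought 5, where 24.7% and 27.1% of all genes were called (12.4% and 13.6% higher). RNU6-1, RNU6ATAC and RNY4 were higher with each siRNA, by 0.94, 0.68 and 0.43 with siTARBP2-1 and by 1.01, 0.61 and 0.55 with siTARBP2-2. With siTARBP2-2 also RNA5S9 was higher and RPPH1 lower. The fits that left out 1 siRNA array compare the same arrays. In those fits RNU6ATAC did not pass with siTARBP2-2 alone, nor RNY4 with siTARBP2-1 alone. Since the controls are shared, the siRNAs are not separate support for each other. Each is 1 array, assumed to vary like the controls.

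Between the siRNAs 0 of 11227 genes (0%) passed the threshold, and 648 had an unadjusted p under 0.05 (limma). None of the 9 RNAs passed. The signs were mixed, with 4 RNAs higher and 5 lower with siTARBP2-1 than with siTARBP2-2. RPPH1 was higher by 0.46, RNY5 by 0.40, RNY1 by 0.28 and RNU6ATAC by 0.07, and of all genes 157, 256, 724 and 6288 differed more. The 5 lower ones ran from -0.94 for RNA5S9 to -0.07 for RNU6-1. The median absolute difference between the siRNAs was 0.12 over the 9 RNAs and 0.08 over all genes, and that between the controls 0.15 and 0.08.

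**Figure D3:**
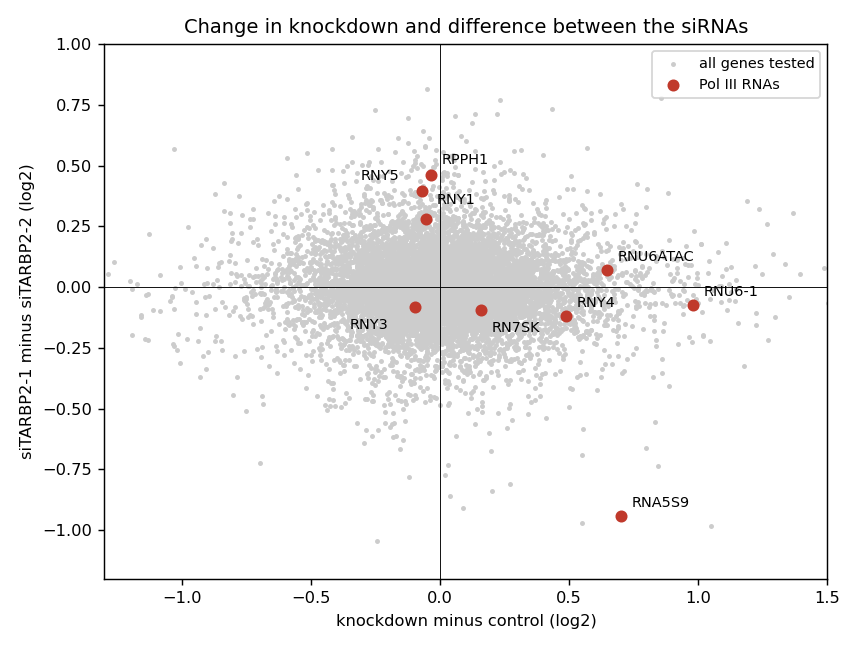
Knockdown minus control (x axis, log2) against siTARBP2-1 minus siTARBP2-2 (y axis, log2) for the 9 measured Pol III RNAs (red) and all genes tested (grey), within the axis limits shown. RNU6-1 lies at 0.98 with a difference of -0.07 between the siRNAs, and RNA5S9 at 0.70 with -0.94.

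The genes most alike to the RNAs with the widest range were found by the distance of centred log2 values over the 4 arrays, among 11218 genes. For RNA5S9 they were FKBP10, TRA2A and NUP43, each at a distance of 0.32. For RNU6-1 they were SHROOM3 at 0.03 and LMCD1 and PRAG1 at 0.05. With 4 arrays such a likeness describes these arrays only.

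Other RNAs of polymerase III were set beside the list. RN7SL1, the RNA of the signal recognition particle, gave 18285 and 17443 in knockdown and 15974 and 16271 in control, and rose by 0.16 (standard error 0.05, limma adjusted p = 0.0168). BCYRN1, for BC200 RNA, which shares sequence with Alu repeats, gave 1384 and 1122 against 1386 and 1471, a log2 difference of -0.27 (limma adjusted p = 0.0397), and -0.09 without siTARBP2-2 (adjusted p = 0.428). The 3 vault RNA probes VTRNA1-1, VTRNA1-2 and VTRNA2-1 were above background on at most 1 array. Neither call was stable, as RN7SL1 lost it in 5 and BCYRN1 in 6 of 12 alternatives. RN7SL1 was not called without siTARBP2-1, without siControl-1, with no detection filter, without a variance trend or with median scaling (limma adjusted p = 0.101, 0.114, 0.139, 0.136 and 0.0578). BCYRN1 was also not called without siControl-2, with no detection filter, without a variance trend, with a robust variance model or with median scaling (limma adjusted p = 0.218, 0.118, 0.187, 0.103 and 0.0691).

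Of the RNAs of other polymerases, 2 of 5 measured snRNAs and both measured ribosomal RNAs rose, where 17.1% of all genes did. RNU4-1 and RNU4-2, the U4 partners of U6, are made by RNA polymerase II. RNU4-1 gave 232 and 405 in knockdown and 169 and 104 in control, so that its groups do not overlap but each is wide. It rose by 1.52 (standard error 0.28, limma adjusted p = 9.45e-04), while its controls differed by 1.06, and the value was 0.99 without siControl-2. RNU4-2 gave 196 and 357 against 158 and 132 and rose by 1.05 (standard error 0.22, limma adjusted p = 0.00254). As with RNA5S9, siTARBP2-2 was the higher array for both, by 0.89 and 0.98. Without siTARBP2-2 the difference of RNU4-2 was 0.56 (adjusted p = 0.0311). Both calls ended without a variance trend (adjusted p = 0.0521 and 0.0681) and with a robust variance model (0.234 and 0.242).

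The U1 probes changed less. RNU1-3, RNVU1-18 and RNU1-1 gave 0.32, 0.33 and 0.15 (limma adjusted p = 0.0525, 0.0508 and 0.316). RNU1-3 and RNVU1-18 passed with median scaling (limma adjusted p = 0.00629 and 0.00357) and with cyclic loess (0.0389 and 0.0386). RNVU1-18 passed also with detection on all 4 arrays (0.0485), and gave 0.45 without siTARBP2-1 and 0.21 without siTARBP2-2. Both values rest on the controls, which differed by 0.39 for RNU1-3 and 0.42 for RNVU1-18. RNU1-3 gave 0.52 without siControl-1 and 0.13 without siControl-2, and RNVU1-18 gave 0.54 and 0.12. The groups of RNVU1-18 and RNU1-1 overlap. RNU2-1, RNU5A-1, RNU5D-1, RNU11 and RNU4ATAC were not above background on any array. RNA18SN5, the 18S ribosomal RNA made by RNA polymerase I, gave 312 and 349 against 155 and 122. It rose by 1.55 (standard error 0.14, limma adjusted p = 2.52e-06). Its call held in each of 12 alternatives on the same arrays, with values from 1.28 to 1.82. RNA28SN5 gave 1517 with siTARBP2-1 and 934.5 with siTARBP2-2 on its brighter probe, 782 and 538 in the controls, and rose by 0.85 (adjusted p = 0.00350). Its siRNA arrays differed by 0.78, and the value was 0.47 without siTARBP2-1 and 0.59 without siControl-2, both still called (adjusted p = 0.0467 and 0.0438). Its other probe, which did not stand for the gene and was not tested, gave 2.13. On that probe the controls differed by 1.38. The call of RNA28SN5, on its brighter probe, ended without a variance trend (adjusted p = 0.0869) and with a robust model (0.301). The part that a change shared by RNAs without a poly(A) tail has in the values of the Pol III RNAs was not tested.

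Genes for the polymerase and for the proteins that bind these RNAs were listed next. Of 81 listed genes 79 were measured, of which 5 rose (6.33%) and 10 fell (12.7%), with a median log2 difference of -0.03. Both shares lie below those of all genes, 17.1% higher and 17.2% lower, and the difference in share was not tested. Among subunits of the polymerase 2 of 18 rose and 2 fell. POLR1D, which RNA polymerases I and III share, rose by 0.44 (standard error 0.06, limma adjusted p = 5.05e-05), and POLR3C rose by 0.18, while POLR3D and POLR3E gave -0.38 and -0.23 (adjusted p = 0.0348, 0.0230 and 0.0211). Of 18 measured genes in the list of initiation factors and the repressor MAF1, GTF3A rose by 0.23 and GTF3C3 fell by 0.34 on the log2 scale (adjusted p = 0.00781 and 0.00108). GTF3A is the factor that recognises the 5S gene, and GTF3C3 is a subunit of TFIIIC. ZNF143, an activator of snRNA genes, gave -0.15 (adjusted p = 0.0808).

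**Figure D4:**
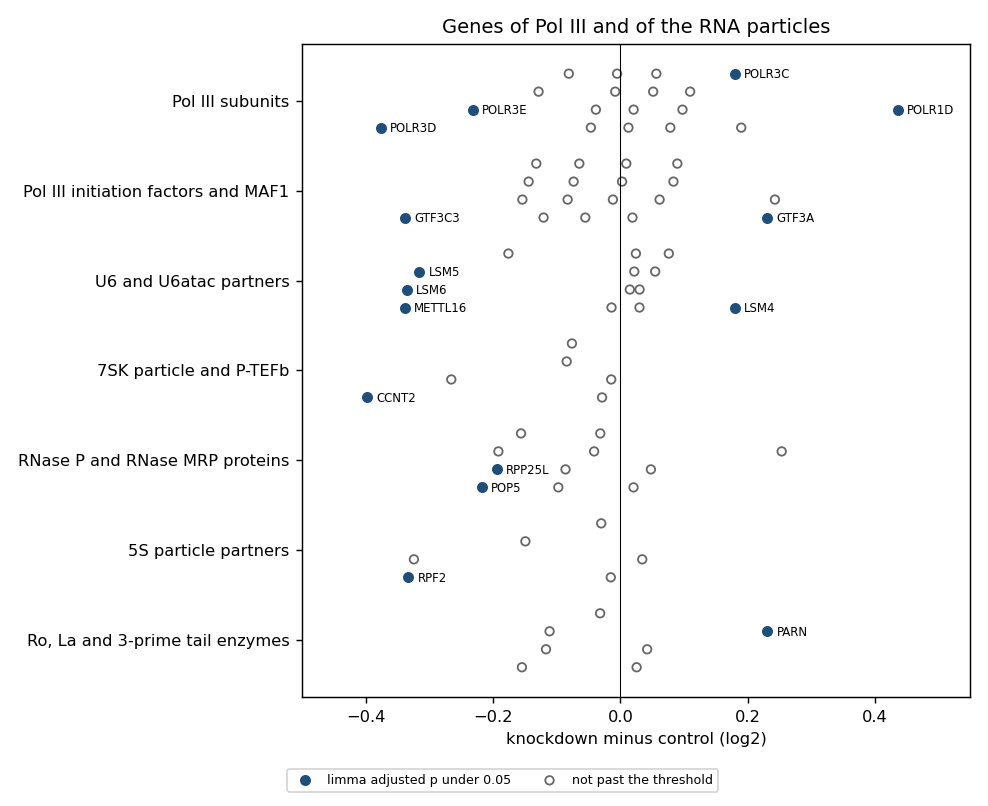
Knockdown minus control (log2) of each measured gene in the 7 lists of polymerase III subunits, its factors and the proteins of the RNA particles, 1 point per gene, filled and named where the limma adjusted p is under 0.05. Filled points lie on both sides of 0, 5 above and 10 below.

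Of 13 proteins that bind or modify U6 or U6atac 1 rose and 3 fell, 30.8% called against 34.2% of all genes, and the shares called in the 7SK, RNase P, 5S and Ro and La lists were 16.7%, 18.2%, 16.7% and 14.3%. LSM5 and LSM6, of the ring that holds the U6 3′ end, gave -0.32 and -0.33, METTL16, which methylates U6, gave -0.34, and LSM4 rose by 0.18 (limma adjusted p = 9.73e-04, 0.00259, 0.0382 and 0.0284). In the 7SK particle CCNT2, a cyclin of P-TEFb, gave -0.40 (adjusted p = 9.14e-04), 1 of 6 measured, and the 7SK-binding LARP7 and MEPCE gave -0.08 and -0.27 (adjusted p = 0.399 and 0.125). MEPCE rests on the controls, at -0.02 without siControl-1 and -0.51 without siControl-2 (adjusted p = 0.912 and 0.00474), and was called with a replicate block (0.0483). Of 11 proteins of RNase P and RNase MRP, POP5 gave -0.22 and RPP25L -0.19, and RPP25 gave -0.16 (adjusted p = 0.0190, 0.0309 and 0.0820). RPF2, which helps load the 5S particle onto the ribosome, gave -0.33 (adjusted p = 5.35e-04), 1 of 6 in its list, with MDM2 at -0.32 and HEATR3 at -0.15 (0.156 and 0.505), the latter at 0.11 without siControl-1. Among 7 Ro, La and tail enzymes PARN, a deadenylase, rose by 0.23 (adjusted p = 0.0284), and SSB, for La, and TOE1 gave -0.12 and -0.15 (0.136 and 0.182).

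The calls of POLR1D, GTF3C3, LSM5, LSM6, CCNT2 and RPF2 held in each of 12 alternatives, which reuse these arrays and are no separate support. The other 9, POLR3C, POLR3D, POLR3E, GTF3A, LSM4, METTL16, POP5, RPP25L and PARN, were each lost without siControl-2 (adjusted p from 0.0551 to 0.280) and without a variance trend (0.0561 to 0.147). Without siTARBP2-1 the calls of POLR3D, POLR3E, GTF3A, LSM4 and POP5 were lost (adjusted p from 0.0557 to 0.161). Without siTARBP2-2 those of POLR3C, POLR3D, METTL16, POP5, RPP25L and PARN were lost (0.0573 to 0.282), and without siControl-1 those of POLR3E, METTL16 and RPP25L (0.0577 to 0.153). Counted over the lists, 1 gene rose and 7 fell without siControl-2, and 1 and 5 without a variance trend. With median scaling 6 fell, where POLR3E, METTL16, POP5 and RPP25L were not called (adjusted p = 0.236, 0.0910, 0.185 and 0.271).

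The authors' deposited table lists all 10 RNAs and marks 2 of them as up-regulated, RNU6-1 at 0.90 and RNA5S9 at 0.48. In the authors' deposited table RNY4 and RNU6ATAC have 0.21 and 0.20, under the smallest change it marks, 0.230. RN7SK has 0.16 there, a value joined to both of its probes. The 0.16 given further above is that of its brighter probe alone. The other 5 lie between -0.06 and -0.02 in the authors' deposited table. These values come from the same arrays on a scale that compresses low signals, and they served to join probes to accessions, so they are no separate support.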

How the data were processed

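Total RNA of 4 samples was hybridised to Illumina BeadChips after biotin labelling, per the labels' protocols. Per the file headers, one deposited table gives each array's signal intensity before normalization for 47323 probes and a detection p-value for each. A second table deposited by the authors, the series matrix, holds intensity on a linear scale, normalized by a method not named here. The submitters' processing notes name lumi. Another deposited table holds 1 log fold change per accession, taken here as a log2 value whose base the header does not state, and a mark of up-regulated accessions.

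Probe annotation was not used here. Probes were joined to accessions by value: transforming the series matrix intensities with a fitted inverse hyperbolic sine and subtracting the group means returns the deposited changes within 1e-09. This joined 39183 of 39747 accessions, 33118 to 1 probe and 6065 to 2 to 4 neighbouring probes (values shifted by 1e-06 joined 32). Accessions were named without version numbers through the RefSeq table of GRCh38.p14, which gave 27497 probes 1 of 19114 symbols. The series matrix carries the groups crosswise to the table before normalization, whose headings were followed.

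The neqc function (limma 3.58.1, R 4.3.3, offset 16) corrected background and applied quantile normalization, giving log2 values. The filter asked for a detection p under 0.01 on 2 or more arrays, and each of 11227 genes was represented by its brightest probe on average. Groups of 2 arrays were compared by lmFit and eBayes with a variance trend (two-sided). P-values were adjusted by Benjamini-Hochberg over all genes, and the threshold was 0.05. A fit of 3 groups gave each siRNA against the 2 controls and against the other, with the spread taken from the controls. The fit was also run on values simulated from its own fitted variances, which cannot test the p-values of these 4 arrays. The number of arrays limits the precision. Alternatives were other scalings, detection filters, probe rules and variance models, each array left out, and the replicate number as a block.

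The 10 RNAs and the gene lists were chosen with earlier results of these data known, so values of the RNAs are a description without a test. All probes joined to the 10 RNAs are given, and probes that received no symbol could not be searched for them. Other genes named are TARBP2, DICER1, each measured RNA of the comparison lists, in each protein list the 3 of smallest p with up to 3 more past the threshold, and the 3 genes most alike to the 2 RNAs with the widest range.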

Additional observations from a re-analysis of the deposited data

Results flagged for a closer look

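RPPH1 was 0.46 higher with siTARBP2-1 than with siTARBP2-2 on the log2 scale, and the 2 knockdown arrays lay on opposite sides of both controls. RNY5 showed the same arrangement with a difference of 0.40. Each side is 1 array, and neither difference passed the threshold in the fit across all genes. Over all genes 7.6% had their knockdown arrays on opposite sides of the control range.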

How the results depend on the processing

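In the series matrix with its groups as labelled, which stand crosswise to the table before normalization, the 4 called RNAs turn sign, at -0.94 for RNU6-1, -0.37 for RNU6ATAC, -0.60 for RNA5S9 and -0.33 for RNY4, and TARBP2 turns to 2.57. Leaving out each array in turn left 2 to 3 of the 9 RNAs past the threshold and higher, with 2 without siTARBP2-2, and for all genes gave 2580 to 3050 calls against 3842. For the protein genes it gave 1 to 5 higher and 6 to 7 lower. With no detection filter siTARBP2-2 gave 2023 calls and 2 protein genes rose. Without a variance trend the siRNAs gave 582 and 761 calls, and 1 protein gene rose and 5 fell. Median scaling gave 20 calls between the siRNAs and cyclic loess 4, against 0, and 6 protein genes fell with median scaling. It also moved the share of higher calls to 66.1% from 49.8%. Deviations from the group means correlated at 0.0045 over all genes between siTARBP2-1 and siControl-1. A replicate block gave 3855 calls and the same count of 4 RNAs. Whether arrays of the same replicate number were handled together was not tested. The number of arrays limits all values, and RMRP was not above background.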
